A study of Mus musculus with 8 samples.

Results

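Growth hormone secretion is set in the hypothalamus by a stimulating and an inhibiting peptide, and the genes of both peptides and of receptors of the axis were followed here across 4 hypothalamic nuclei. The set holds 8 of the 20284 named genes on the array, namely *Ghrh*, *Sst*, *Cort*, *Sstr1*, *Sstr2*, *Sstr3*, *Sstr4*, and *Ghr*. All probes that a RefSeq accession pairs with one of these genes were taken, whatever their values, which gave 10 of 55681 probes. Of these, 9 entered the tests, for which a probe had to be well above background on both arrays of some nucleus, as 28894 probes in all were. The exception was the second of the 2 *Ghr* probes.

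The arcuate nucleus (Arc), the ventromedial hypothalamus (VMH), the dorsomedial hypothalamus (DMH), and the lateral hypothalamus (LH) were cut out by laser microdissection from C57BL/6J female mice at 3 months of age, 2 animals in all. All groups shared strain, sex, and age, and the labels name no transgene or treatment. RNA of each nucleus was amplified as a whole transcriptome, and 2 samples per nucleus were hybridized to the 8 arrays of 1 slide, named Arc1, Arc2, and so on below. Which arrays share an animal is not given in the sources used here, so p-values measure the spread between these samples, which may be technical in part. Signals are 1-color intensities divided by the 75th percentile of their array, called scaled signals. Levels of different genes are not compared with each other, though marker sums add the signals of several probes within an array and the probes of 1 gene are told apart by their mean signal. A microdissected nucleus is a mixture of cells, so fewer cells of a type and less RNA per cell cannot be told apart.

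The 2 LH arrays stood apart from the rest. Over the probes tested, replicate arrays had a correlation of 0.938 in the LH and of 0.971 to 0.981 in the other nuclei, and LH2 was closer to DMH2 (0.954) than to LH1. The LH arrays differed by more than 1 on the log2 scale for 5 of the 9 tested probes of the set, against 14.9% of all probes. For 3 of the 5, those of *Cort*, *Sstr4*, and 1 of *Sstr1*, the lower array was not well above background, which leaves only a bound. No set probe did so in the Arc or VMH and 1 did in the DMH, that of *Ghr*. The called differences of the set from the LH are therefore given with and without each of its arrays, in fits where the lone LH array is assumed to vary like the other nuclei. The defining genes had their highest signals under their labels in the Arc (*Agrp*, *Npy*, and *Kiss1*), the VMH (*Nr5a1* and *Fezf1*), and the DMH (*Npvf* and *Grp*). The DMH genes were also well above background on LH1, at 406 for *Npvf* and 376 for *Grp*, but not on LH2, at 29.0 and 32.8. *Npvf* also read 438 on VMH1, and its F-test did not pass (adjusted p = 0.0769). *Hcrt*, the orexin precursor gene of the LH, read 105971 and 116750 in the LH but also 55940 and 51283 in the DMH. *Pmch*, the LH gene of melanin-concentrating hormone, read 17650 and 17005 in the LH, 16253 and 11631 in the DMH, and 3938 and 3140 in the VMH. *Crh*, a marker of the paraventricular nucleus, read 2026 to 4931 in the DMH and LH, where *Sim1* of the same nucleus was at background. Of 6 anterior pituitary genes, 4, among them *Gh* and *Prl*, were at background on all 8 arrays, while *Cga* read 1425 on Arc1 and was at background on the other arrays.

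Growth hormone-releasing hormone (GHRH), the product of *Ghrh*, is made by neurons of the Arc that release it into the portal blood of the median eminence, where it drives the pituitary to secrete growth hormone. Somatostatin, the product of *Sst*, inhibits that secretion and is also a transmitter of many local neurons, and cortistatin, the product of *Cort*, is a related peptide that binds the same receptors. The somatostatin receptors lower cyclic AMP and open inwardly rectifying potassium channels through inhibitory G proteins, and growth hormone feeds back on the hypothalamus through its receptor, *Ghr*, and the JAK2 and STAT5 proteins.

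The proximal promoters of 3 of these genes are shown because *Sst* and *Sstr2* were both highest in the Arc and hold the same element, and because *Ghrh* had the widest range among the nuclei. Each run covers 250 bases before and 50 bases after a RefSeq transcription start in GRCm38.p6, read 5′ to 3′ on the strand of the gene. Capitals mark TGACGTCA, the cyclic AMP response element first described in the somatostatin gene, in the first and second run, and TAATTA, a core bound by many homeodomain factors, in the third.
*Sst* promoter, chr16:23890795-23891094, minus strand: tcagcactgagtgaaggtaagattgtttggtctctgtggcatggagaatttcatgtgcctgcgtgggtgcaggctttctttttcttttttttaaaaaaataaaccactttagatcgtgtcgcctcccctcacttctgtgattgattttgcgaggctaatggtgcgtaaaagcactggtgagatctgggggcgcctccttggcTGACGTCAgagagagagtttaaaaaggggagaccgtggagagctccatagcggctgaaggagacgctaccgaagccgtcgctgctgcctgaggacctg
*Sstr2* promoter, chr11:113619077-113619376, plus strand: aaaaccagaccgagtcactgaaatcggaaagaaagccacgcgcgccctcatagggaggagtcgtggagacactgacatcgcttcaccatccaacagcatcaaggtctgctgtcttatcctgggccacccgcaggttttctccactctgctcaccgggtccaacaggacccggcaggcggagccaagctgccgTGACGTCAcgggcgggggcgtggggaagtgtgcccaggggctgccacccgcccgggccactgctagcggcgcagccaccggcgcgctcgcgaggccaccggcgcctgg
*Ghrh* promoter, chr2:157337377-157337676, minus strand: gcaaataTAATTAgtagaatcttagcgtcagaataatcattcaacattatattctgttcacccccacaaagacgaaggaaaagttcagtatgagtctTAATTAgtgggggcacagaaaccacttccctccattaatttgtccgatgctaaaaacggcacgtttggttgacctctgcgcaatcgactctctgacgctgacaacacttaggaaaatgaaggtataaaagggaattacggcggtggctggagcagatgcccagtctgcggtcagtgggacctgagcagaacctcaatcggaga

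The cyclic AMP response element began 48 bases before the start of *Sst* and 58 bases before that of *Sstr2*, and was in none of the other windows of the set, those of *Ghrh* and *Ghr*, also highest in the Arc, included. Of 32851 promoter windows of the same length, 588 (1.79%) held it. TAATTA began 243 and 153 bases before this *Ghrh* start and 85 bases before that of *Cort*, and 5.29% of all windows held it. TTCNNNGAA, the motif of STAT proteins, was found in the *Cort* window, 16 bases after the start, and in 8.3% of all windows. All of these motifs were searched on both strands, and they do not overlap each other in these windows. Promoter sequences were matched for 7 of the 8 genes, all but *Sstr1*, with 10 windows in all. A match describes the letters of a window and is not a measured site.

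Among the 9 tested probes of the set, 5 differed among the nuclei by the limma F-test at an adjusted p of 0.05, which was reached by 8.34% of all probes tested. They were those of *Ghrh*, *Sst*, *Sstr2*, and *Sstr3*, and 1 of the 2 *Sstr1* probes. *Ghrh*, *Sst*, *Sstr1*, *Sstr2*, and *Ghr* were highest in the Arc and *Sstr3* in the VMH, with both arrays of that nucleus above all arrays of the others. The ratio of the highest to the next highest nucleus was 5.19 for *Ghrh*, 3.99 for *Sstr3*, and lower for the others, so no probe reached 10-fold. The count of 5 rested on single arrays. It was 3 without Arc1 or DMH2, 2 without Arc2, VMH1, VMH2, or DMH1, 8 without LH1, and 7 without LH2. Of the probes added in the last 2 fits, that of *Cort* without LH1 and those of *Sstr1* and *Sstr4* without LH2 had an LH signal not well above background. *Ghrh* and *Sstr3* were called in each of these 8 fits.

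**Figure D1:**
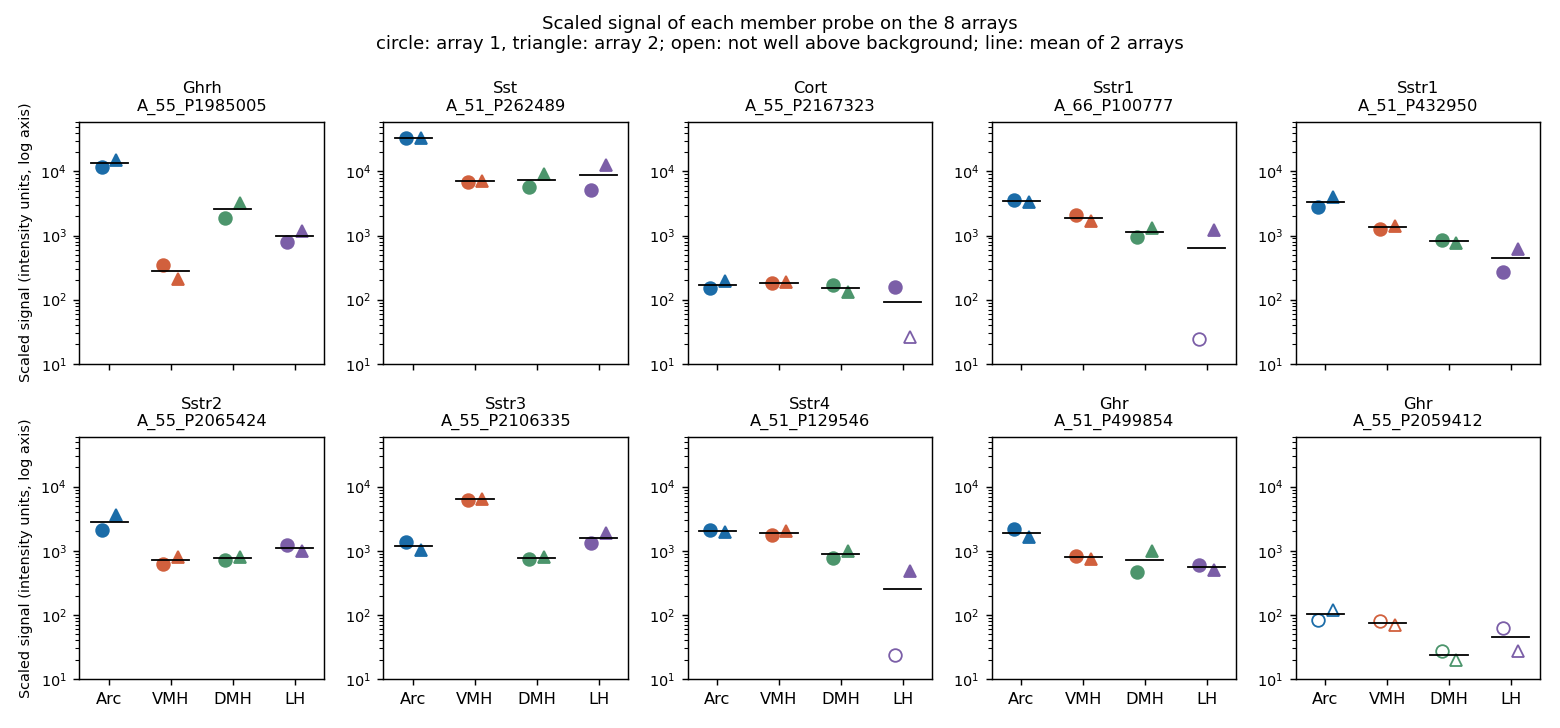
Scaled signal of each of the 10 probes of the set on the 8 arrays (log axis, intensity units), by nucleus. Circles are replicate 1, triangles replicate 2, open symbols are not well above background, and lines are the means of the 2 arrays. *Ghrh* ranged from 209 on VMH2 to 15186 on Arc2, *Sstr3* stood highest on both VMH arrays, and the open symbols of *Sstr1* and *Sstr4* on LH1 lie far below LH2.

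*Ghrh* (probe A_55_P1985005) was highest in the Arc, measurable in every nucleus, and lowest in the VMH. Its scaled signal was 11681 on Arc1 and 15186 on Arc2, 1902 and 3270 in the DMH, 780 and 1168 in the LH, and 349 and 209 in the VMH, with replicate 1 first here and below. The arrays of the nuclei did not overlap, and the order Arc, DMH, LH, VMH held for every choice of 1 array per nucleus. The means were 13434 ± 2478 (SD, n = 2) in the Arc, 2586 ± 967 in the DMH, 974 ± 274 in the LH, and 279 ± 98.7 in the VMH. The signal in the Arc was thus 5.19 times that in the DMH and 48.2 times that in the VMH.

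By limma, the log2 difference of *Ghrh* between the Arc and the VMH was 5.63 (SE 0.39, adjusted p = 0.000874), and between the Arc and the LH 3.80 (SE 0.39, adjusted p = 0.00288). The difference between the Arc and the DMH was 2.42 (SE 0.39, adjusted p = 0.039). The VMH was lower than the DMH by 3.21 on the log2 scale (adjusted p = 0.0107) and lower than the LH by 1.82 (adjusted p = 0.0441). The DMH and LH, neighbors in this order, differed by 1.39 with a 95% interval of 0.48 to 2.30 (adjusted p = 0.178), and by 1.09 without LH1 and 1.68 without LH2 (adjusted p-values of 0.242 and 0.107). The comparisons of the Arc with the VMH and the LH passed in all 19 alternative fits. That with the DMH missed the threshold without any 1 of the Arc, VMH, or DMH arrays, with adjusted p-values from 0.0633 without VMH2 to 0.223 without Arc2. The difference between the VMH and the LH was lost in 7 of the 8 fits without 1 array, the exception being that without LH1 (a difference of -2.11, adjusted p = 0.041). It was -1.53 without LH2 (adjusted p = 0.0919), and its highest adjusted p was 0.191 without VMH2. The difference between the VMH and the DMH was lost without VMH2 (adjusted p = 0.0728) and without DMH2 (adjusted p = 0.0573). Without LH1, the difference between the Arc and the LH was 3.51, and without LH2 it was 4.09.

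In the DMH and the LH, *Ghrh* kept a larger share of its Arc signal than *Agrp*, *Npy*, and 1 of 2 *Kiss1* probes did, and a smaller share than the other *Kiss1* probe. The mean *Ghrh* signal in the DMH was 19.3% of that in the Arc (14.2% on DMH1 and 24.3% on DMH2), in the LH 7.25%, and in the VMH 2.07%. For *Agrp*, the agouti-related peptide of Arc feeding neurons, the shares were 1.06%, 0.976%, and 0.803%. For *Npy*, which the same neurons make, they were 2.2%, 3.64%, and 1.88%, and for the brighter probe of *Kiss1*, a kisspeptin gene that controls reproduction, 1.19%, 1.46%, and 1.21%. These probes and that of *Ghrh* were well above background on all 8 arrays. The dimmer *Kiss1* probe (A_55_P2069768) read only 336 and 427 in the Arc and was not well above background on LH1, and its shares were 36%, 25.2%, and 49%. The summed signal of the 3 Arc markers, with the brighter *Kiss1* probe, was 1300 to 1353 in the DMH and 87612 to 103165 in the Arc. The differences between these shares were not tested.

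**Figure D2:**
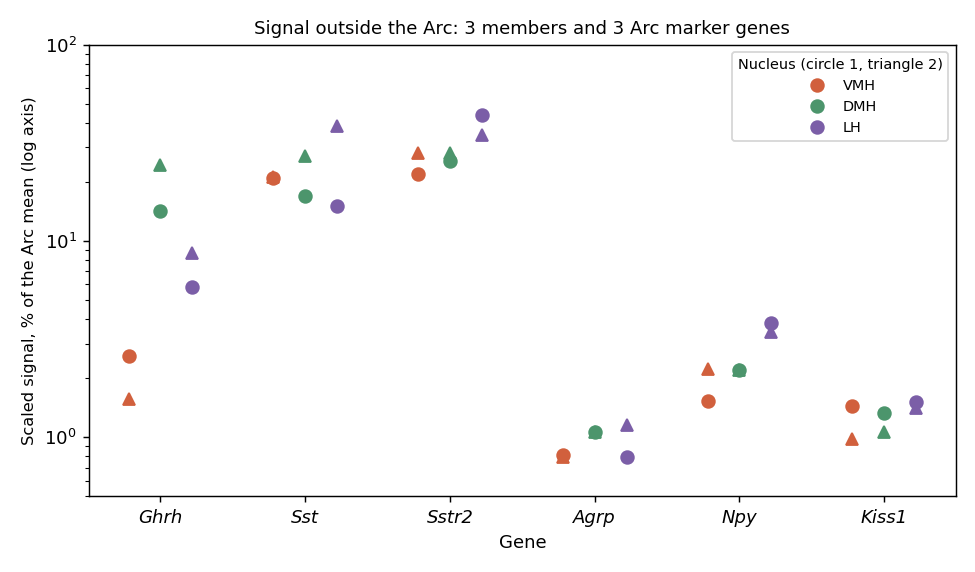
Scaled signal in the VMH, DMH, and LH as a percentage of the mean in the Arc (log axis), for *Ghrh*, *Sst*, and *Sstr2* and for the Arc marker genes *Agrp*, *Npy*, and *Kiss1* (its brighter probe only), with circles for replicate 1 and triangles for replicate 2. *Ghrh* stood at 14.2% and 24.3% in the DMH, where the marker probes plotted lay at or below 2.21%.

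*Sst* (A_51_P262489) was highest in the Arc, and its other nuclei overlapped. It read 33478 on Arc1 and 33319 on Arc2, 6957 and 7047 on the VMH arrays, 5686 and 9021 on the DMH arrays, and 5052 on LH1 and 12817 on LH2. The Arc arrays lay above all others, and the arrays of the VMH, DMH, and LH overlapped. The difference between the Arc and the VMH was 2.25 on the log2 scale (SE 0.44, adjusted p = 0.0312), and that between the Arc and the LH was 2.05 (SE 0.44, adjusted p = 0.0326). The difference from the DMH was 2.22 with an adjusted p of 0.0771. The pairs of the VMH, DMH, and LH differed by at most 0.20 on the log2 scale, with 95% intervals that reached from -1.24 to 1.00. Those with the LH turned with its arrays, from -0.87 without LH1 to 0.47 without LH2 for VMH minus LH and from -0.84 to 0.50 for DMH minus LH, none of them called.

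The signals of *Sst* on the LH arrays differed by 2.54-fold, and the SE of its differences was 0.44 with both and 0.26 for the Arc against the VMH without either one. Without LH1, the difference between the Arc and the LH was 1.38 (adjusted p = 0.0382), and without LH2 it was 2.72 (adjusted p = 0.00424). The difference from the DMH passed in both fits, with adjusted p-values of 0.0117 and 0.0157. Conversely, the F-test of *Sst* missed the threshold without any 1 of the Arc, VMH, and DMH arrays, with adjusted p-values from 0.0779 without DMH2 to 0.239 without Arc1, in the unscaled signals (0.055), with no filter on dim probes (0.0704), and with a one-way analysis of variance (0.188). The difference between the Arc and the VMH was lost without any 1 of the same 6 arrays, with 0.0562 without DMH1 to 0.174 without VMH1, and that between the Arc and the LH with 0.0547 without DMH1 to 0.167 without Arc1.

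*Cort* (A_55_P2167323) was dim in every nucleus. Its signal was 151 and 193 in the Arc, 182 and 188 in the VMH, 171 and 132 in the DMH, 155 on LH1, and 26.5 on LH2, where it was not well above background. The Arc, VMH, and DMH overlapped in part, and the F-test gave an adjusted p of 0.431. The Arc and VMH differed by -0.11 on the log2 scale (95% interval -1.80 to 1.58), with an SE of 0.72 that was 0.23 without either LH array. Without LH1, only LH2 stood for the LH, and the lowest signal well above background on that array was 132. Against this value the Arc, VMH, and DMH were at least 1.29-fold, 1.40-fold, and 1.14-fold higher. The fitted log2 differences of 2.69, 2.80, and 2.51 took the dim LH2 signal as read. Without LH2 the differences from the LH were between -0.04 and 0.26.

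Of the somatostatin receptor genes, *Sstr1* and *Sstr2* were highest in the Arc, *Sstr3* was highest in the VMH, and *Sstr4* overlapped between the VMH and the Arc. *Sstr3* (A_55_P2106335), whose receptor sits in the primary cilium of neurons, read 6253 on VMH1 and 6471 on VMH2. It read 1306 on LH1 and 1885 on LH2, 1375 and 1043 in the Arc, and 737 and 802 in the DMH. Both VMH arrays lay above all other arrays, and the LH and Arc arrays overlapped. The VMH was higher than the Arc by 2.41 on the log2 scale (SE 0.25, adjusted p = 0.00382), than the DMH by 3.05 (SE 0.25, adjusted p = 0.00321), and than the LH by 2.02 (SE 0.25, adjusted p = 0.00851). The other 3 pairs did not pass, and the largest of these, DMH minus LH, was -1.03 with a 95% interval of -1.63 to -0.43 (adjusted p = 0.143). The F-test and the differences from the Arc and the DMH passed in all 19 alternative fits. The difference from the LH was lost without VMH1 (adjusted p = 0.0638) and without VMH2 (adjusted p = 0.0571), and it was 1.75 without LH1 and 2.28 without LH2.

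The VMH arrays also stood apart from the others in the summed signals of neuron markers. The summed signal of the markers of glutamate neurons, of which *Slc17a6* was measured and *Slc17a7* was at background everywhere, was 8370 to 10607 in the VMH and 1393 to 5149 in the other nuclei. The sum of 3 markers of GABA neurons was 3273 to 5060 in the VMH and 29681 to 48156 elsewhere. The sums were not tested, and neither was the part of these neurons in the *Sstr3* signal.

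*Sstr2* (A_55_P2065424) was highest in the Arc. The signal was 2100 on Arc1 and 3567 on Arc2, 1247 and 984 in the LH, 722 and 796 in the DMH, and 622 and 796 in the VMH. The Arc arrays stood above the others, and those of the DMH and VMH overlapped. The Arc exceeded the VMH by 1.96 on the log2 scale (SE 0.30, adjusted p = 0.0142), the DMH by 1.85 (adjusted p = 0.0434), and the LH by 1.30 (adjusted p = 0.043). Outside the Arc the pairs differed by at most 0.66 on the log2 scale, none with an adjusted p under 0.276. The F-test (adjusted p = 0.0244) missed the threshold without Arc2, VMH1, VMH2, DMH1, or DMH2, with 0.0669 without VMH2 to 0.117 without Arc2, and in the unscaled signals (0.138), where its differences from the VMH, DMH, and LH also missed it (0.0692, 0.17, and 0.18). The difference from the VMH was lost without Arc2 (0.0772), VMH1 (0.11), or VMH2 (0.0629). That from the DMH was lost without any 1 of the Arc, VMH, and DMH arrays (0.0645 to 0.227), and that from the LH without any array but LH1 (0.0554 to 0.178). The difference from the LH was 1.47 without LH1 (adjusted p = 0.0472) and 1.13 without LH2 (adjusted p = 0.102).

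*Sstr1* was measured by 2 probes that both had their highest means in the Arc, followed by the VMH. The first (A_51_P432950) read 2749 and 3925 in the Arc, 1253 and 1422 in the VMH, 847 and 777 in the DMH, 266 on LH1, and 622 on LH2, with no overlap between nuclei. The difference between the Arc and the LH was 3.01 on the log2 scale (SE 0.40, adjusted p = 0.0065), and no other pair passed. The next largest differences were 2.02 between the Arc and the DMH (adjusted p = 0.0797) and 1.71 between the VMH and the LH (adjusted p = 0.06). The second probe (A_66_P100777), the brighter one, read 3525 and 3380 in the Arc, 2117 and 1677 in the VMH, 947 and 1335 in the DMH, and 1234 on LH2, but 24.4 on LH1, where it was not well above background. LH2 was thus at least 15.6-fold higher than LH1, with LH1 raised to the limit of 79.3 for its array, the lowest value there that counts as well above background. Its F-test did not pass (adjusted p = 0.304).

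The *Sstr1* results depended on the LH arrays. Without LH1, the Arc exceeded the LH for both probes, by 2.40 (adjusted p = 0.00614) for the first and 1.48 (adjusted p = 0.0268) for the second, and the DMH, by 2.02 (adjusted p = 0.0122) and 1.62 (adjusted p = 0.0281). In that fit the difference of the second probe between the DMH and the LH was -0.14, against 2.69 over all arrays, a value that rests on the dim LH1. Without LH2, the Arc exceeded the DMH by 2.02 in the first probe and 1.62 in the second. In that fit it exceeded the LH by 3.63 on the log2 scale in the first probe and at least 43.6-fold in the second. The F-test of the first probe, 0.0191 over all arrays, missed the threshold without any 1 of the Arc, VMH, and DMH arrays (0.0542 without DMH1 to 0.107 without Arc2), and its difference between the Arc and the LH missed it without Arc2 (adjusted p = 0.0534).

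*Sstr4* (A_51_P129546) read 2125 and 1996 in the Arc, 1780 and 2017 in the VMH, 774 and 1007 in the DMH, and 486 on LH2, but 23.4 on LH1, where it was not well above background. The Arc and VMH overlapped, and both lay above the DMH and LH. The F-test did not pass (adjusted p = 0.149), and the difference of 4.27 between the Arc and the LH had an SE of 1.19 (adjusted p = 0.07). Without LH1, the Arc exceeded the LH by 2.08 and the DMH by 1.22, and the VMH exceeded the LH by 1.96. Without LH2, LH1 alone stood for the LH, and the Arc, VMH, and DMH were at least 26.0-fold, 23.9-fold, and 11.1-fold higher. The difference between the Arc and the DMH was 1.22 in that fit too. The Arc and VMH differed by 0.12 over all arrays (95% interval -2.68 to 2.93).

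*Ghr* (A_51_P499854, transcript NM_010284) read 2194 on Arc1 and 1623 on Arc2, 842 and 733 in the VMH, 471 on DMH1 and 987 on DMH2, and 596 and 504 in the LH. The Arc arrays were the highest, and the DMH arrays spanned those of the VMH and LH. The Arc exceeded the LH by 1.79 on the log2 scale (SE 0.37, adjusted p = 0.0283). The differences from the DMH (1.47, adjusted p = 0.151) and the VMH (1.26, adjusted p = 0.104) did not pass, and neither did the F-test (adjusted p = 0.0723). The call against the LH was lost without Arc1 (0.179), Arc2 (0.0903), VMH1 (0.0636), VMH2 (0.0595), or LH2 (0.067, a difference of 1.66), and in the unscaled signals (0.0587), and was 1.91 without LH1 (adjusted p = 0.0425). The second probe (A_55_P2059412, NM_001048178) had no array with a signal well above background, and read 19.7 to 120.

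Over the 6 pairs of nuclei, 11 of the 15 called differences of the set involved the Arc. Most calls over all probes did so as well. These were 1712, 364, and 2699 for the Arc against the VMH, DMH, and LH. They were 590 for VMH minus DMH, 1525 for VMH minus LH, and 267 for DMH minus LH. Against the VMH, 3 of 9 probes had a higher signal in the Arc (*Ghrh*, *Sst*, and *Sstr2*) and 1 was lower (*Sstr3*), where 5.93% of all probes passed. Against the DMH, 2 were higher in the Arc (*Ghrh* and *Sstr2*), where 1.26% of all probes passed. Against the LH, 5 were higher in the Arc (*Ghrh*, *Sst*, *Sstr1*, *Sstr2*, and *Ghr*), where 9.34% passed. The median log2 difference over the 9 probes was 1.26, 1.62, and 2.05 in these comparisons, and that over all probes 0.01, 0.02, and 0.05. These comparisons share the Arc arrays.

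Between the VMH and the DMH, *Sstr3* was higher and *Ghrh* lower in the VMH, where 2.04% of all probes passed, and the same held between the VMH and the LH, where 5.28% passed. Between the DMH and the LH, limma called 0 of the 9 probes, and 0.924% of all probes passed. Before adjustment, 4 of the 9 had a limma p under 0.05, a level at which all probes were not counted. Without LH1, 1 probe was called in that comparison (*Cort*) and without LH2, 3 (both of *Sstr1* and that of *Sstr4*), of which all but the first *Sstr1* probe were not well above background on the lone LH array. Signals were scaled between arrays, and the median difference over all probes before scaling was -0.26 for Arc minus VMH, -0.46 for Arc minus DMH, and 0.33 for DMH minus LH. In the unscaled signals, 3, 1, and 3 probes of the set were called in the comparisons of the Arc with the VMH, DMH, and LH, and none of the 15 called differences turned its direction under any alternative.

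**Figure D3:**
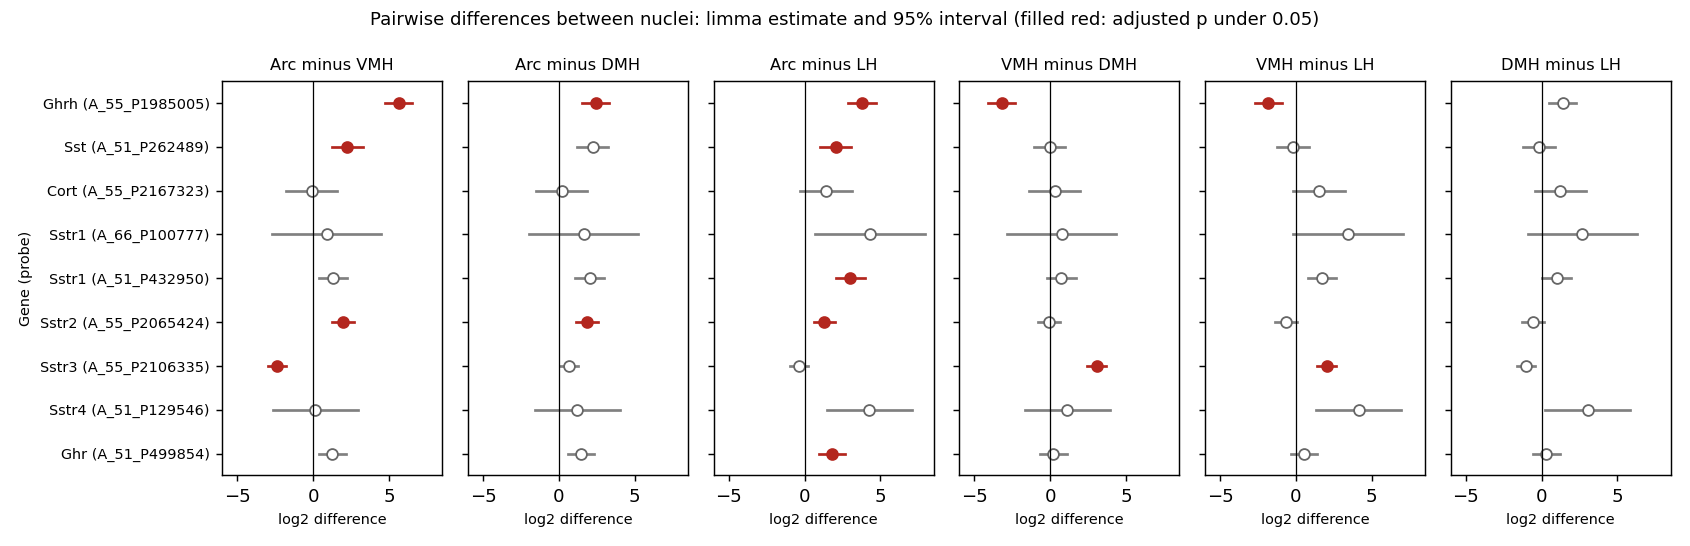
Log2 differences in scaled signal between each pair of nuclei for the 9 tested probes, as estimated by limma with 95% intervals (points and bars). Filled red points have an adjusted p under 0.05, 15 in all, of which 11 are in the 3 panels of the Arc and none is in that of the DMH minus the LH. The widest bars are those of *Sstr4* and of the *Sstr1* probe that read 24.4 on LH1.

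The rest of the axis was described by a list of 39 further genes, of which 31 had a tested probe, 38 probes in all. By the F-test, 17 of the 38 probes (44.7%), from 15 genes, differed among the nuclei, beside the 8.34% of all probes. The genes were picked with results of these arrays known, and the count is a description.

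The receptors and hormones that act beside the set were mostly at background. *Ghsr*, the receptor of ghrelin that promotes growth hormone release, read 1122 and 1283 in the Arc and was not well above background in any other nucleus. The Arc signal exceeded that of the VMH at least 11.5-fold, that of the DMH 12.7-fold, and that of the LH 11.7-fold. For these bounds a dim signal was set to the lowest well above background on its array. The fitted log2 differences, with dim signals as read, were 5.48, 3.99, and 5.26 (adjusted p-values of 0.000556, 0.00278, and 0.000614). Below too, an adjusted p beside a bound belongs to the fitted difference and not to the bound. The comparison with the LH also passed without LH1 (adjusted p = 0.00173) and without LH2 (adjusted p = 0.00104). *Sstr5*, the remaining somatostatin receptor, was measured on all arrays, at 893 and 1097 in the Arc, 663 and 651 in the DMH, 593 and 747 in the LH, and 353 and 543 in the VMH (F-test adjusted p = 0.129). *Ghrhr*, the receptor of GHRH on pituitary somatotrophs, *Gh*, and *Ghrl*, the ghrelin gene, were at background on all arrays. *Mboat4*, which acylates ghrelin, was well above background on 1 array, VMH1.

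Transcription factors linked to the development of GHRH neurons were low in the VMH. Of 6 tested genes, 5 passed the F-test, beside 8.34% of all probes. All 5 were lower in the VMH than in the Arc, the DMH, and the LH, where 5.93%, 2.04%, and 5.28% of all probes passed in either direction. With either LH array left out, the signals of the 5 genes were still lower in the VMH than in the LH. *Gsx1* read 1250 and 1128 in the Arc, 762 and 746 in the DMH, and 1219 and 1091 in the LH, and was at background in the VMH, so that the Arc exceeded it at least 11.4-fold (adjusted p = 0.000384). *Otp* was highest in the Arc, at 1896 and 1845, with 490 and 419 in the DMH, 591 and 513 in the LH, and 76.9 and 122 in the VMH. Of the 5, *Otp* was the one called higher in the Arc than in the DMH (log2 difference 2.05, adjusted p = 0.0173) and the LH (1.76, adjusted p = 0.00995; 1.87 without LH1 and 1.66 without LH2). The adjusted p of *Gsx1* between the Arc and the DMH was 0.371.

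*Hmx2*, *Hmx3*, and *Dlx1* had their highest signals in the DMH, at 3330 and 2431, 3185 and 2660, and 1895 and 1921 on its arrays. In the LH they read 2202 and 1401, 1489 and 1746, and 1620 and 1141, and in the Arc 793 and 735, 810 and 876, and 926 and 1167. None of the 3 was called between the DMH and the LH (adjusted p-values of 0.551, 0.282, and 0.676) or between the Arc and the DMH (0.22, 0.0598, and 0.673). The differences between the VMH and the DMH were -4.99 for *Hmx2* (adjusted p = 0.00746), -4.02 for *Hmx3* (adjusted p = 0.00277), and -5.52 for *Dlx1* (adjusted p = 0.00508), the last with the VMH at background on both arrays, where the bound was at least 18.4-fold. *Hmx2* read 164 on VMH1 and 48.8 on VMH2, where it was not well above background. *Ikzf1* did not pass (F-test adjusted p = 0.632). *Dlx1* is also a factor of GABA neurons in general, whose markers summed to 3273 to 5060 in the VMH and to at least 29681 elsewhere, and the part of that difference was not tested. The VMH was also the nucleus with the lowest *Ghrh* signal, and a link between that signal and these factors was not tested.

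Of 12 tested probes of growth hormone receptor and cytokine signaling, 8 from 6 genes passed the F-test and 4 did not, beside 8.34% of all probes. All 8 were higher in the Arc than in the VMH and the LH, 6 of them also than in the DMH. In these pairs 5.93%, 9.34%, and 1.26% of all probes passed in either direction. Without LH2, the difference from the LH was lost for *Cish* (adjusted p = 0.0957) and *Stat5a* (adjusted p = 0.0586). *Socs1*, *Socs2*, *Socs3*, and *Cish* encode feedback inhibitors that STAT proteins induce. *Socs3* read 938 and 1000 in the Arc and 112 and 130 in the VMH, where only VMH2 was well above background, and was at background in the DMH and LH. Its signal in the Arc was higher than in the VMH by 3.00 on the log2 scale (SE 0.43, adjusted p = 0.0104) and at least 10.3-fold higher than in the DMH (adjusted p = 0.00504). *Socs2*, a target of growth hormone in many tissues, was measured by 3 probes, which all passed, with the brightest at 1972 and 2596 in the Arc and 481 to 680 on the other 6 arrays. The Arc exceeded the VMH by 1.91 on the log2 scale (SE 0.25, adjusted p = 0.00804).

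*Socs1* read 1443 and 1460 in the Arc and 294 to 409 elsewhere (difference from the DMH 2.20, adjusted p = 0.00554). *Cish* was measured in the Arc, at 366 and 358, and in no other nucleus on any array, but its adjusted p of 0.045 held in 8 of 18 alternatives. *Stat5a* was highest in the Arc, at 1350 and 1748, and lowest in the VMH, at 146 and 74.4, where only VMH1 was well above background. The fitted difference was 3.88 (SE 0.36, adjusted p = 0.00238). Of 2 *Stat3* probes, 1 passed (2492 and 2746 in the Arc, 892 to 1386 elsewhere), and its call held in 11 of 19 alternatives. *Stat5b* and *Jak2* did not pass, and the brighter *Stat5b* probe had means of 8604 in the Arc, 8241 in the DMH, 7907 in the LH, and 7041 in the VMH (F-test adjusted p = 0.738). *Jak2*, the kinase bound to the growth hormone receptor, read 2261 and 2284 in the Arc and 2590 to 3976 elsewhere (F-test adjusted p = 0.307). The summed signal of 4 markers of tanycytes and ependymal cells was 4095 to 4607 in the Arc and 1281 to 2054 elsewhere. Within it, the tanycyte genes *Rax* and *Vim* had means of 1549 and 1715 in the Arc and at most 99.3 and 814 elsewhere, the ependymal gene *Ccdc153* did not pass (means of 813 to 1023, F-test adjusted p = 0.872), and *Foxj1* was at background throughout. The part of these cells in the signals of the Arc was not tested.

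Of the insulin-like growth factor genes, 1 of 8 tested probes passed the F-test, a share near the 8.34% of all probes. *Igf1*, the mediator of growth hormone action in the periphery, was measured by 4 probes, and the one that was tested read 254 on LH1 and 182 on LH2 and was at background elsewhere. The LH signal exceeded that of the Arc at least 1.90-fold, that of the VMH 2.07-fold, and that of the DMH 2.28-fold. With dim signals as read, the fitted log2 differences were -2.98 for Arc minus LH, -3.26 for VMH minus LH, and -2.52 for DMH minus LH. Their adjusted p-values were 0.00272, 0.00312, and 0.0225. These differences were -2.74, -3.02, and -2.28 without LH1, and -3.23, -3.50, and -2.76 without LH2. *Igf1r* read 2302 and 3128 in the LH, 1995 and 2842 in the DMH, 2023 and 1722 in the VMH, and 1400 and 1428 in the Arc (F-test adjusted p = 0.176). With the brightest probe of each marker gene, the LH arrays also had the highest sums of oligodendrocyte markers, 66111 to 68364 against 9110 to 29045 elsewhere, of astrocyte markers, 47177 to 47205 against 22250 to 29230, and of endothelial markers, 4269 to 5875 against 2317 to 3919. On these probes, both LH arrays lay above all others for 5 of 5 oligodendrocyte genes but for 2 of 4 astrocyte genes (*Aldh1l1* and *Slc1a2*), 2 of 4 endothelial genes (*Cldn5* and *Flt1*), and 2 of 4 microglia genes (*Cx3cr1* and *Tmem119*). The same held for 2 of 3 GABA neuron genes, 2 of 4 general neuron genes, and *Pvalb*. The GABA neuron sum was 40226 to 48156 in the LH against 3273 to 35856 elsewhere. *Gfap* of the astrocyte list had means of 5036 in the Arc, 2761 in the LH, 2251 in the DMH, and 1256 in the VMH (F-test among the 4 nuclei, adjusted p = 0.0308). The probes of a gene did not all go one way. Of 3 *Mbp* probes, the brightest had its highest mean in the LH and the other 2 their lowest, and of 3 *Csf1r* probes, the brightest had its lowest mean in the LH and the other 2 their highest. The microglia sum, 74626 to 76961 in the LH against 92244 to 115356 elsewhere, was mostly the brightest *Csf1r* probe, which read 63119 to 108110. The part of these cells in the *Igf1* signal was not tested.

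Of the G proteins and potassium channels through which somatostatin receptors act, 2 of 10 tested probes passed the F-test, beside 8.34% of all probes. *Kcnj5*, a subunit of the inwardly rectifying channel, read 1439 and 1519 in the VMH, 632 and 613 in the Arc, 430 and 513 in the DMH, and 538 and 667 in the LH. The VMH exceeded the Arc by 1.25 on the log2 scale (adjusted p = 0.0187), the DMH by 1.66 (adjusted p = 0.0126), and the LH by 1.30 (adjusted p = 0.019), which was 1.15 without LH1 and 1.46 without LH2. Its F-test, at an adjusted p of 0.0142, held in 13 of 19 alternatives, with a highest value of 0.0951. One of 2 *Kcnj3* probes, with 197 and 248 in the VMH and no more than 107 elsewhere, passed in 6 of 18 alternatives. It was called higher in the VMH than in the Arc and the LH (adjusted p-values of 0.0161 and 0.0199), where it was at background, and not than in the DMH (0.0583), and the other probe did not pass.

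**Figure D4:**
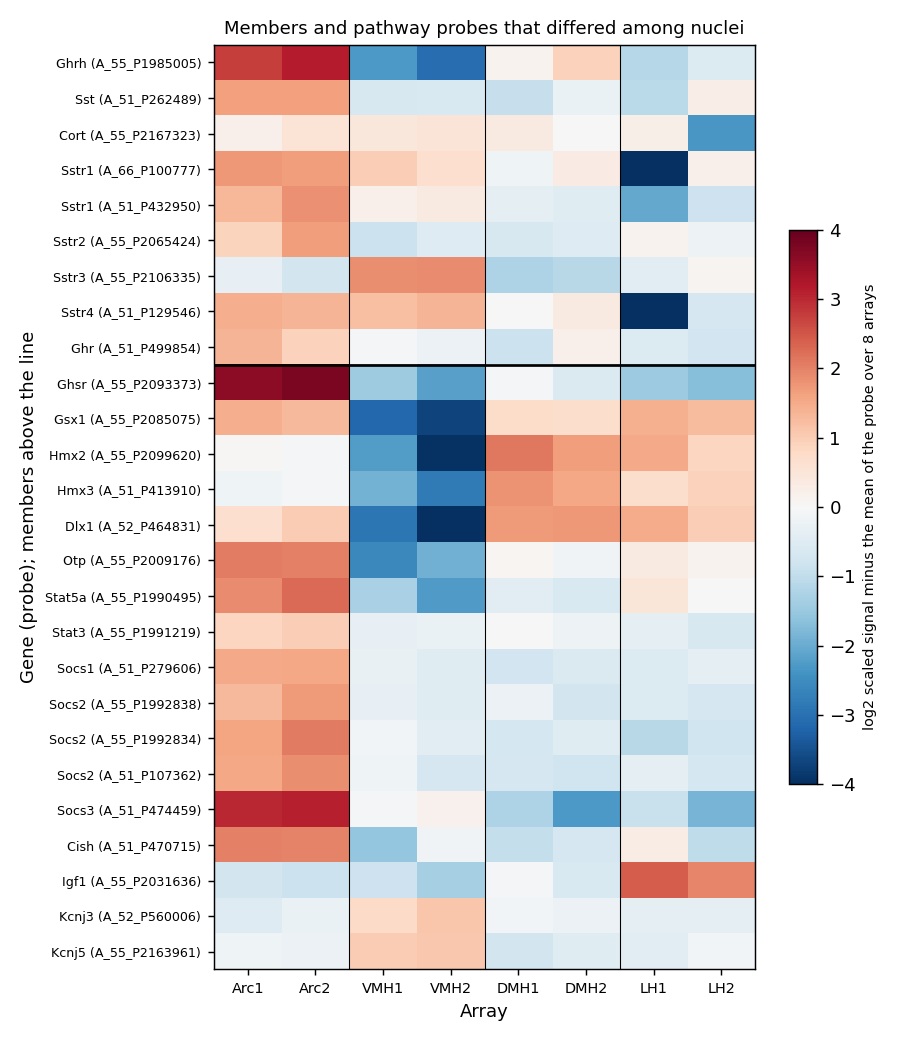
Log2 scaled signal minus the mean of the probe over the 8 arrays (color scale ending at -4 and 4), for the 9 tested probes of the set above the line and the 17 probes of the further list that passed the F-test below it. The columns are the arrays. The *Socs*, *Ghsr*, and *Stat5a* rows are highest in the Arc columns, the *Gsx1*, *Hmx2*, *Hmx3*, *Dlx1*, and *Otp* rows are lowest in the VMH columns, and *Sstr3*, *Kcnj3*, and *Kcnj5* are highest in the VMH columns.

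The genes whose log2 signals over the 8 arrays were most like those of a set gene were searched among probes well above background in the nucleus where that gene was highest. For *Ghrh* they were *Pcbd1* (Pearson r = 0.992), *Celf6* (0.991), and *Olfr17* (0.986), and for *Sst* they were *Nt5dc2* (0.969), *Plxnb2* (0.961), and *Atp7a* (0.958). *Sstr2* was most like *Jpt2* (0.983), *Gstp2* (0.98), and *Prdx6* (0.978), and *Sstr3* was most like *Lama1* (0.992), *Kcnj5* (0.982), and *Fabp3* (0.978). These are the highest of 15779 probes for the genes highest in the Arc and of 15732 for *Sstr3*, over 8 points that form 4 nuclei of 2 arrays and share the scaling. *Kcnj5* is also in the further list, which was picked with results of these arrays known. They are descriptions of a pattern over few arrays.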

How the data were processed

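Gene expression was measured on 8 Agilent 1-color arrays, 2 per nucleus, grouped by the labels. The authors deposited the processed signal of every spot as a linear intensity from Agilent Feature Extraction (11.5.1.1 in the submitters' processing notes, 10.7.3.1 in the file headers), with background subtracted and no scaling between arrays. A deposited summary table repeats these intensities as 1 value per probe, within 0.51 for at least 99.7% of probes, and served as an alternative. The labels give Cy3, but the methods and the files' red channel give Cy5. Amplification before labeling may alter the proportions of transcripts.

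Outlier spots were dropped, the remaining spots were averaged by probe, and signals were divided by the 75th percentile of their array (815 to 1239 before rescaling to a geometric mean of 1). No spot was saturated, and 47.1% to 52.7% of spots were well above background, at scaled signals of at least 79.3 to 132. The software's own mark decided whether a probe was well above background. A nucleus with no such array gives only a lower bound, taken against the lowest marked signal of each array. Some brighter signals were not marked, such as that of *Fezf1* at 125 on LH1, so a bound depends on that choice and is not a strict limit. The fits took dim signals as read. Log2 signals of 28894 probes were fitted in limma 3.58.1 (R 4.3.3) with 1 mean per nucleus, 4 residual and 3.02 prior degrees of freedom. The F-test and the 6 pairwise contrasts were each adjusted by Benjamini-Hochberg over all probes, with a threshold of 0.05. The fit was tested on simulated data. The precision is limited by the number of arrays.

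Of 28390 probes with a RefSeq accession, 26762 (94.3%) were named through the GRCm38.p6 annotation. The genes named are all members of the set, genes of the further list past the F-test with 8 taken whatever their values, and *Ghrl*, *Mboat4*, *Ikzf1*, and *Jak2*, named after their values were seen, the 3 genes most like each set gene whose brightest probe passed, and markers of nuclei and cell types. The members and lists were chosen with earlier results of these data known. Alternative settings were the summary table, quantile normalization, no scaling, normexp with an offset of 50, no filter or one on all 8 arrays, use of the outlier spots, low signals raised, the replicate number as a block, trended and robust moderation, only the 4 arrays of a pair, a one-way analysis of variance, and leaving out each array.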

Additional observations from a re-analysis of the deposited data

How the results depend on the processing

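None of the 285 differences recomputed for the set under the alternatives reversed, and an F-test has no direction to reverse. Of the 168 F-tests recomputed, 132 stayed on their side of the threshold, 24 no longer passed, and 12 passed newly. Of the differences, 218 stayed and 67 no longer passed. The 5 probes that differed among the nuclei became 3 without scaling (*Ghrh*, *Sstr1*, and *Sstr3*) and 1 with a one-way analysis of variance per probe (*Sstr3*), which called 529 of all probes against 2409. They ranged from 2 to 8 when 1 array was left out, in fits that called 898 to 3650 of all probes. The 15 called differences became 9 with no filter on dim probes, where 55536 probes shared the adjustment (lost were *Ghrh* Arc minus DMH and VMH minus LH, *Sst* Arc minus VMH and Arc minus LH, and *Sstr2* Arc minus DMH and Arc minus LH), and ranged from 5 to 26 without 1 array. The 17 probes of the further list became 8 when all 8 arrays had to be well above background. That filter removes genes at background in a nucleus and changes the adjustment, and the 8 were not all among the 17. The count became 4 with the one-way analysis of variance, and ranged from 11 to 18 without 1 array. The replicate number, which also marks the row of the slide, did not pair the arrays by the check used. The correlation between nuclei of the differences between replicate 1 and 2 was 0.08, 0.04, 0.09, 0.26, -0.03, and 0.11 over the 6 pairs of nuclei. With the replicate number as a block, 5 probes of the set, 13 differences, and 16 probes of the further list passed, against 5, 15, and 17. Dim signals limit *Cort*, the second *Ghr* probe, and the LH values of *Sstr1* and *Sstr4*, where a value below the lowest measured signal carries no level. The calls against 1 dim LH array rest on that value as read and not on the bound.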
